A study of Mus musculus with 4 samples.

Results

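The mature arms of miR-328 and miR-744 were examined in macrophages of mouse bone marrow (BM) and spleen. The microRNAs (miRNAs) were selected on their read counts, since both hairpins give one of the most read miRNAs of these libraries, so their high level is a description and not a finding. Of 4 names listed for the 2 hairpins, 3 had a row among the 847 rows of the count table: mmu-miR-328-3p, mmu-miR-328-5p and mmu-miR-744-5p. The other, mmu-miR-744-3p, was not analysed here. The libraries hold small RNA of macrophages that were sorted from C57BL/6J mice, whose age the labels give as 6 to 8 weeks. The AML groups are BM and spleen macrophages taken 18 days after mice received GFP+ leukaemia cells of the MLL-AF9 model of acute myeloid leukaemia (AML), without irradiation, and the normal groups are BM and spleen macrophages of normal mice. Each of these 4 groups held 1 library, so no difference has a replicate check, and the stated question was how miRNAs of macrophages in this leukaemia compare with those at homeostasis. The labels do not give the markers of the sort or say whether animals were pooled.

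A miRNA is made from a hairpin precursor, which is cut to a duplex of a 5p and a 3p strand, and 1 strand is usually kept in an Argonaute protein. The kept strand pairs with messenger RNAs mainly through its seed, bases 2 to 8 from the 5′ end, and lowers their output. In myeloid cells miR-328 is known as a decoy as well, because it binds the RNA-binding protein hnRNP E2 and so frees the messenger RNA of the myeloid factor C/EBP alpha for translation. Among the reported targets of miR-744 is the messenger RNA of TGF-beta 1, a cytokine that macrophages both make and respond to.

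In the GENCODE M21 annotation of GRCm38, the Mir744 gene lies at chr11:65734733-65734832 on the minus strand. It sits inside an intron of Map2k4, a kinase gene of the JNK pathway on the same strand, and overlaps none of its exons. Mir328 lies at chr8:105308364-105308460 on the minus strand and opposite to Elmo3, a gene of the engulfment and cell motility family on the plus strand. Most of that hairpin faces an Elmo3 intron, and 12 of its 97 bases overlap an exon. Which build the submitters used is not stated in the sources used here.

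The miR-744 sequences below are from RefSeq (GRCm38.p6) and show the precursor behind the reads, the arm that was read and the arm that was not analysed here. Capitals mark the seed in the mature arms and both arms in the hairpin, where they run from base 13 to 34 and from base 70 to 91 of 100.
mmu-miR-744-5p: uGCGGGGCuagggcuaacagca
mmu-miR-744-3p: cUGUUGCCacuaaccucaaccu
mir-744 hairpin: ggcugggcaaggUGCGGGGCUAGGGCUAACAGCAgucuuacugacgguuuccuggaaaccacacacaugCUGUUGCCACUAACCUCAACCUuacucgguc

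All 7 bases of the miR-744-5p seed are G or C, and the whole arm has a GC content of 63.6%. Of 208 miRNAs that reached 30 counts in some library and had a sequence in the reference, 22 had a higher GC content, and the median was 49.0%. No other mature miRNA of the reference table had the same seed. The closest by this measure was mmu-miR-7036a-5p, which shares bases 2 to 7 (in capitals) and had 2, 0, 2 and 1 counts in normal BM, AML BM, normal spleen and AML spleen.
mmu-miR-7036a-5p: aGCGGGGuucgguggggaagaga

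Across the 208 miRNAs, GC content had a Pearson correlation with the log2 level between -0.21 in normal BM and -0.13 in normal spleen, a weak relation across miRNAs that share libraries and are not replicates. Neither miR-328 arm had a sequence in that table.

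The total counts were 206652 in normal BM, 271209 in AML BM, 435492 in normal spleen and 180227 in AML spleen. Of 7 myeloid miRNAs fixed as macrophage markers all were read in every library, but miR-223-3p, abundant in granulocytes and monocytes, had only 10, 12, 28 and 4 counts in this order. In normal BM miR-155-5p, miR-142a-3p, miR-223-5p and miR-142a-5p had few counts as well, at 14, 31, 42 and 67. Normal spleen had 824, 1704, 36 and 1047 of them. Levels are given as the share of all counted reads of a library with a 95% exact binomial interval, or as counts per 1000000 (CPM) of the library scaled with TMM factors. Intervals cover counting error only, because reads without molecular identifiers are not independent molecules and mice were not replicated.

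The 3p arm of miR-328 was lowest in normal BM, highest in normal spleen and between them in both leukaemic libraries. It had 4928 reads in normal BM, 9774 in AML BM, 20779 in normal spleen and 6672 in AML spleen. These are 2.38% (2.32% to 2.45%), 3.60% (3.53% to 3.67%), 4.77% (4.71% to 4.84%) and 3.70% (3.62% to 3.79%) of the reads. By count it ranked 14, 8, 6 and 6 in its library. In normal BM its neighbours in rank were let-7c-5p with 5296 reads and let-7g-5p with 4553.

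The 5p arm of miR-744 followed another order, highest in AML BM, then normal BM, and lowest in the spleen. It had 6687 reads in normal BM, 12266 in AML BM, 8136 in normal spleen and 4256 in AML spleen. The shares were 3.24% (3.16% to 3.31%), 4.52% (4.44% to 4.60%), 1.87% (1.83% to 1.91%) and 2.36% (2.29% to 2.43%). Its ranks were 6, 5, 16 and 9. In AML BM it stood between let-7i-5p with 13835 reads and let-7d-3p with 12157.

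**Figure D1:**
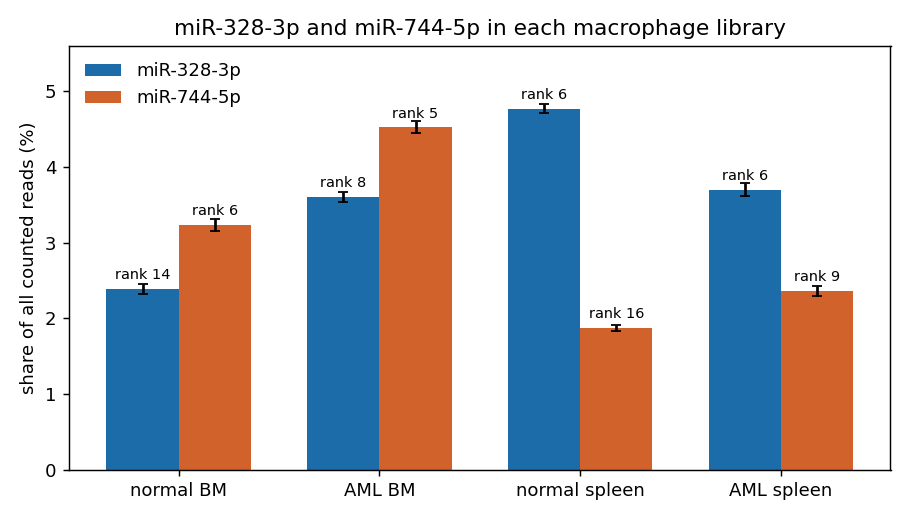
Share of all counted reads (%) of miR-328-3p (blue) and miR-744-5p (orange) in the 4 libraries, 1 library per bar, with 95% exact binomial intervals for counting error and the rank by count above each bar. The orange bar is the taller of the pair in both BM libraries, at 3.24% and 4.52%, and the blue bar in both spleen libraries, at 4.77% and 3.70%.

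The listed arms of both hairpins together made up 5.62% of the reads in normal BM, 8.13% in AML BM, 6.64% in normal spleen and 6.06% in AML spleen. By mean level over the libraries miR-328-3p was sixth and miR-744-5p eighth, at 36549 and 29700 CPM. The miRNA between them, let-7i-5p, stood at 35861 CPM, and just below miR-744-5p came miR-21a-5p at 27817 CPM.

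The highest level of miR-328-3p was 2.23 times its lowest, and that of miR-744-5p 2.11 times its lowest. Over the 144 miRNAs that reached 30 counts in every library the median of this fold was 2.93. Of these 144, 46 had a smaller fold than miR-328-3p and 40 a smaller fold than miR-744-5p. Among the 20 most abundant miRNAs, however, they were thirteenth and eleventh from the smallest range, so other abundant miRNAs such as let-7d-3p varied less.

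The arms of miR-328 were used very unequally. The 5p arm had 2 reads in normal BM, 0 in AML BM, 4 in normal spleen and 0 in AML spleen. As a share of the reads of the hairpin this was 0.0406% (0.00491% to 0.146%) in normal BM and 0.0192% (0.00524% to 0.0493%) in normal spleen. In AML BM 0 of 9774 reads allow a share of up to 0.0307%, and in AML spleen 0 of 6672 allow up to 0.0450%, taking 3 reads as the limit of a count of 0. The upper bounds of the exact intervals are 0.0377% and 0.0553%. A difference between libraries in this share was not detectable at this depth.

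Of 53 hairpins with both arms listed and at least 100 reads in every library, 18 had more than 99% of the reads on 1 arm in every library. The lowest share of the main arm over the libraries was 99.96% for miR-328, second after let-7g, and the median over the hairpins was 96.1%. For miR-744 no share can be given here.

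The balance between the miRNAs differed between the BM and the spleen libraries, and it can be read within a library, where no scaling enters. With 1 library per group, tissue and library cannot be told apart. Per read of miR-744-5p there were 0.737 reads of miR-328-3p in normal BM (95% exact conditional interval 0.710 to 0.765) and 0.797 in AML BM (0.776 to 0.818). In normal spleen there were 2.55 (2.49 to 2.62) and in AML spleen 1.57 (1.51 to 1.63). The intervals lie below 1 in both BM libraries and above 1 in both spleen libraries.

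**Figure D2:**
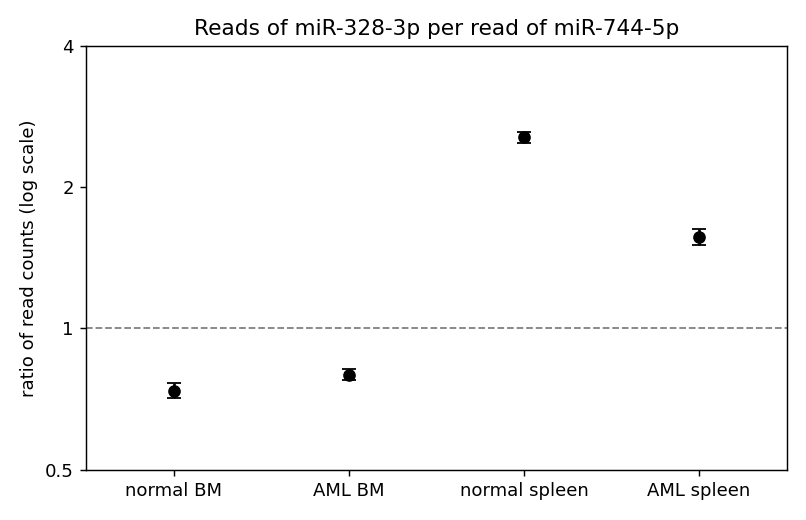
Ratio of miR-328-3p reads to miR-744-5p reads in each library on a log axis, 1 library per point, with 95% exact conditional intervals for counting error and a dashed line at 1. Both BM libraries lie below the line at 0.737 and 0.797, and both spleen libraries above it at 2.55 and 1.57.

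The ratio was 3.47-fold higher in normal spleen than in normal BM (counting interval 3.31 to 3.62) and 1.97-fold higher in AML spleen than in AML BM (1.88 to 2.06). Between states it differed less, but in the spleen not by much. The ratio was 1.08-fold higher in AML BM than in normal BM (1.03 to 1.13). In AML spleen it was 0.614 of that in normal spleen (0.586 to 0.643). This is 1.63-fold lower, against the 1.97-fold between the leukaemic libraries. The 20 most abundant miRNAs form 190 pairs. Of these, 8 pairs (4.21%) had 1 order in both BM libraries and the opposite order in both spleen libraries, and 101 pairs kept 1 order in all 4. The pair examined here is 1 of the 8, and the count was made after its order was seen. Each of its members had such a reversal in 2 of its 19 pairs, this pair included. Many of the 190 pairs lie far apart in level, so the share cannot show how rare a reversal is between miRNAs of similar level.

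The AML BM library had a higher scaled level of both miRNAs than the normal BM library, by less than 2-fold. The level of miR-328-3p was 34857 CPM in the AML library against 23764 CPM in the normal one. The log2 ratio was 0.55, with a 95% exact conditional interval of 0.50 to 0.60. For miR-744-5p the levels were 43744 and 32246 CPM and the log2 ratio 0.44 (0.40 to 0.48). A call needed a ratio of 2-fold or more, an interval that excludes 1, and 30 counts in the larger library. Neither of the 2 members compared was called, against a background of 25.5% of 216 miRNAs, and miR-328-5p had too few counts to be compared in any pair of libraries. Of the 216, 54 had a higher log2 ratio than miR-328-3p and 69 a higher one than miR-744-5p, and the median was 0.00. Scaled on totals without the 10 most abundant miRNAs, which raises every ratio of this comparison by 0.20, the split of the calls went from 29 higher and 26 lower to 39 and 19.

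Between the spleen libraries miR-328-3p was lower in the AML one and miR-744-5p nearly level. The level of miR-328-3p was 34581 CPM in the AML library against 52995 CPM in the normal one, and the log2 ratio -0.62 (-0.66 to -0.58). For miR-744-5p the levels were 22059 and 20750 CPM, with a log2 ratio of 0.09 (0.03 to 0.14) that became -0.15 with DESeq2 size factors, so it has no settled direction. Neither member was called, where 46.3% of 216 miRNAs were. The median log2 ratio of the 216 was -0.25, 82 of them lay below miR-328-3p, and 9 were closer to 0 than miR-744-5p. DESeq2 size factors and total counts move all ratios of this comparison by -0.24 and 0.25, and the calls numbered 51 higher and 68 lower with the former and 64 and 36 with the latter, in place of 54 and 46.

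The AML ratio of miR-328-3p thus had opposite signs in the BM and the spleen. On the log2 scale the spleen ratio minus the BM ratio was -1.17 (counting interval -1.23 to -1.11) for miR-328-3p and -0.35 (-0.42 to -0.28) for miR-744-5p. Under the other 3 scalings the first ran from -1.44 to -0.96 and the second from -0.62 to -0.15. Gaps of this size were common, with a median absolute gap of 1.48 over 186 miRNAs compared in both tissues. Of these, 73 had a smaller absolute gap than miR-328-3p and 28 a smaller one than miR-744-5p.

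The additive model, which fits a tissue and a leukaemia term to all 4 libraries, gave a log2 leukaemia effect of -0.03 (SE 0.76) for miR-328-3p and 0.26 (SE 0.72) for miR-744-5p. The adjusted p of edgeR's quasi-likelihood test was 0.998 for both. It called 0% of 246 miRNAs, with 0 at an unadjusted p under 0.05, and DESeq2 and limma-trend called 0 as well. With 1 residual degree of freedom, the model counts a difference of the leukaemia effect between tissues as noise.

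Between the normal libraries the miRNAs differed in opposite directions. The scaled level of miR-328-3p in normal spleen was 2.23 times that in normal BM. Its log2 ratio of 1.16 (1.11 to 1.20) was called. For miR-744-5p the log2 ratio was -0.64 (-0.68 to -0.59), lower in the spleen and not called. Calls were common, at 66.2% of 234 miRNAs, so 1 of 2 members is no more than the background. Of the 234, 59 had a higher ratio than miR-328-3p and 88 a lower one than miR-744-5p. The call of miR-328-3p held under all 3 other scalings, with log2 ratios from 1.00 to 1.39, the lowest on total counts.

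Between the leukaemic libraries miR-744-5p differed and miR-328-3p was nearly level. For miR-328-3p the log2 ratio of AML spleen to AML BM was -0.01 (-0.06 to 0.03), and it turned positive, at 0.06 (0.01 to 0.10), with the 10 most abundant miRNAs left out of the totals. For miR-744-5p it was -0.99 (-1.04 to -0.94), with 45 of 211 miRNAs lower. This is 1.98-fold lower in AML spleen and just short of a call, which it reached at -1.02 with DESeq2 size factors. Of the 211 miRNAs 35.1% were called. The comparisons share libraries with each other, so their ratios are not independent.

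**Figure D3:**
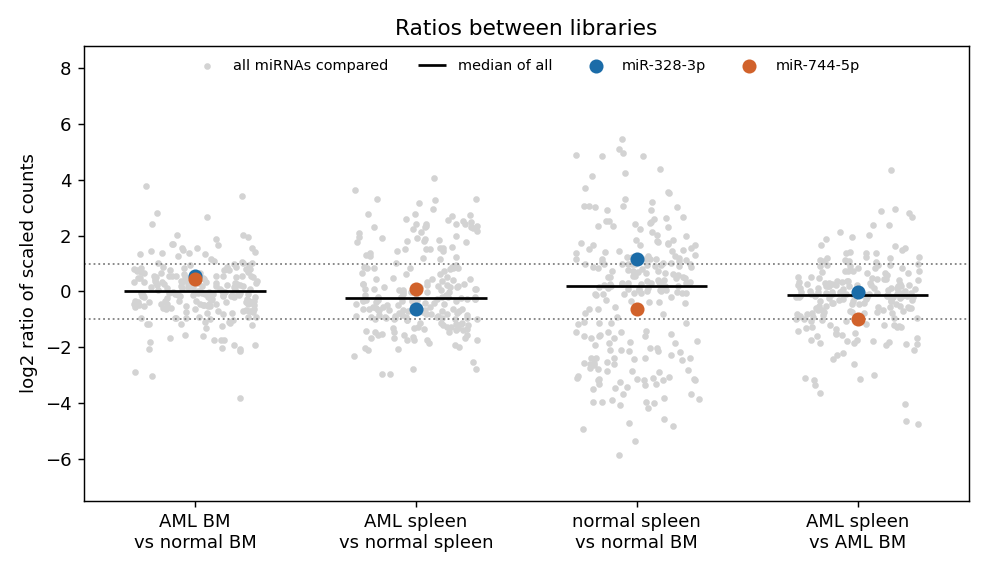
Log2 ratios of scaled counts in the 4 comparisons, with each grey point 1 miRNA that had 30 counts or more in the larger library (a count of 0 entered as 3), the black line their median, dotted lines at 2-fold, and miR-328-3p (blue) and miR-744-5p (orange) on top. Of the 2 members only miR-328-3p in normal spleen against normal BM, at 1.16, lies past a dotted line, and miR-744-5p in AML spleen against AML BM, at -0.99, lies next to one.

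The 3 miRNAs with the pattern most like that of miR-328-3p were miR-423-3p, miR-486a-5p and miR-486a-3p. Likeness was the root mean square difference of log2 CPM, each centred on its own mean over the 4 libraries, among 143 other miRNAs that reached 30 counts in each of them. It was 0.08 for miR-423-3p, 0.10 for miR-486a-5p and 0.10 for miR-486a-3p, against a median of 0.65, and miR-744-5p was in place 77 at 0.74. The counts of both miR-486a arms lay close in every library, so these rows are not independent.

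Reads of miR-328-3p per read of miR-423-3p lay close together in 3 libraries, at 0.50 (0.483 to 0.517) in normal BM, 0.508 (0.496 to 0.520) in AML BM and 0.508 (0.494 to 0.524) in AML spleen. Normal spleen stood above these at 0.577 (0.567 to 0.587). Because miR-423-3p was chosen for its likeness to miR-328-3p over the same libraries, a nearly steady ratio follows from that choice. Scaled levels of miR-423-3p were 47556 CPM in normal BM, 68648 in AML BM, 91912 in normal spleen and 68017 in AML spleen. The opposite arm, miR-423-5p, followed another order, with 98855, 64446, 63317 and 114970 CPM.

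For miR-744-5p the most similar miRNAs were miR-30e-3p at 0.19, miR-92a-2-5p at 0.22 and miR-1981-5p at 0.26, against a median of 0.76. The first 2 had only 33 to 93 counts in a library. Reads of miR-744-5p per read of miR-1981-5p were 12.2 in both BM libraries, 8.96 in normal spleen and 14.9 in AML spleen. The smallest difference from any candidate was thus 0.19 for miR-744-5p and 0.08 for miR-328-3p.

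**Figure D4:**
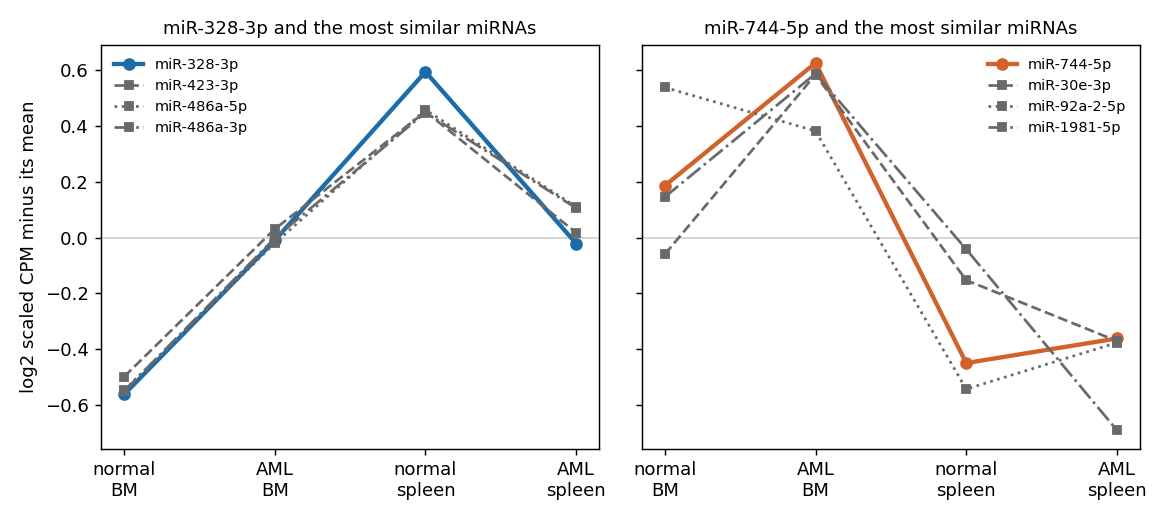
Log2 scaled CPM minus its mean over the 4 libraries for miR-328-3p (left, blue) and miR-744-5p (right, orange), each with its 3 most similar miRNAs in grey, 1 library per point. The grey lines run close to miR-328-3p, at root mean square differences of 0.08 to 0.10, and further from miR-744-5p, at 0.19 to 0.26.

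Of the 6 similar miRNAs 4 had a sequence in the reference, shown with the seed in capitals to compare them with miR-744-5p. None could share its seed, since no other mature miRNA of the reference table has it, and all 5 seeds differed. Among these, miR-423-3p was chosen for its likeness to miR-328-3p and not to miR-744-5p.
mmu-miR-423-3p: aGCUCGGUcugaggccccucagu
mmu-miR-30e-3p: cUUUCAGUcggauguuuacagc
mmu-miR-92a-2-5p: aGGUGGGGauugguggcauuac
mmu-miR-1981-5p: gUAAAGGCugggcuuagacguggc

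Marker miRNAs of other cell types moved across the libraries too. The lymphocyte list was miR-150-5p, miR-181a-5p and miR-342-3p, all read in every library. It made up 1.41% of the reads in normal BM, 3.93% in AML BM, 9.03% in normal spleen and 4.54% in AML spleen. This sum and miR-150-5p had the same order as the shares of miR-328-3p, but the other members did not. The share of miR-181a-5p was larger in AML BM than in AML spleen. That of miR-342-3p, with 32 and 34 counts in normal and AML BM, was lowest in AML BM. In scaled levels miR-328-3p itself was slightly higher in AML BM, at 34857 CPM, than in AML spleen, at 34581 CPM. The muscle list of miR-1a-3p, miR-133a-3p and miR-206-3p made up 3.57% in normal BM, 1.08% in AML BM, 0.208% in normal spleen and 1.31% in AML spleen. The stromal and endothelial list of 4 miRNAs held 2.98%, 2.16%, 0.301% and 2.23%. The blast and progenitor list of 3 miRNAs held 3.22%, 2.48%, 0.491% and 2.16%, and the liver miRNA miR-122-5p held 0.689%, 0.316%, 0.0843% and 0.291%. All members of these lists were read in every library. As sums, the 4 lists were highest in normal BM and lowest in normal spleen, the libraries where miR-328-3p was lowest and highest. Most of their members did the same. By share, however, miR-196b-5p (80, 196, 34 and 5 counts) and miR-126a-5p (68, 120, 10 and 49), both of the blast list, were highest in AML BM. In AML spleen miR-196b-5p was lowest and the stromal miR-145a-5p (221, 279, 85 and 238) highest. The erythroid list, which holds miR-486a-5p with miR-451a and miR-144-3p, made up 0.969%, 0.788%, 0.844% and 0.942%. Its members went different ways, with 1063, 323, 186 and 355 counts for miR-451a and 913, 1779, 3466 and 1340 for miR-486a-5p. The 7 myeloid miRNAs together made up 4.18%, 2.91%, 3.57% and 4.58%. Except in normal spleen, most of these reads were miR-21a-5p, with 8046, 6637, 5158 and 6877 counts. The members went different ways. By share, miR-146a-5p (437, 648, 6753 and 807 counts), miR-142a-3p, miR-142a-5p, miR-155-5p and miR-223-3p were highest in normal spleen, where miR-21a-5p and miR-223-5p were not. The part of these cell types in the levels of miR-328-3p and miR-744-5p was not tested, and in sorted bulk samples fewer cells of a type and less RNA per cell cannot be told apart.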

How the data were processed

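The authors deposited 1 table of raw read counts per miRNA for 4 libraries, with 804 rows of known and 43 of predicted miRNAs. The deposited TPM values, named so per the file headers, equalled counts per 1000000 of the library total, with no length term, and were used only for that check. For the aligner, counter, genome build and miRNA annotation, the sources used here give no name. RNA was extracted with a QIAGEN kit and sequenced on an Illumina instrument, per the labels' protocols. Groups came from the sample titles.

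The TMM method of edgeR 4.0.16 (R 4.3.3) gave the scaling factors (1.00 for normal BM, 1.03 for AML BM, 0.900 for normal spleen and 1.07 for AML spleen). Ratios carry 95% exact conditional intervals (SciPy 1.17.1), and those of ratios of ratios are normal approximations on log counts. Ratios were tested on simulated counts with counting error only. The additive edgeR fit (Benjamini-Hochberg adjustment, SE derived from the F statistic) was tested on simulated counts that spread less than these data. The common dispersion of these data was 0.417, so that test does not show what the fit can detect here. DESeq2 1.42.0 and limma 3.58.1 (prior count 2) were alternatives. Within 3% or 2 counts, no other row repeated the counts of either main arm. Named miRNAs are the members, the 3 most similar in pattern to each main arm, some of the 10 most abundant, rank neighbours and marker miRNAs of the lists. miR-7036a-5p, let-7g, the ratios to single similar miRNAs and the count of pairs by order were chosen after values were seen. The members and lists were chosen with earlier results of these data known.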

Additional observations from a re-analysis of the deposited data

Results flagged for a closer look

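The AML to normal ratio of miR-328-3p ran in opposite directions in the 2 tissues, with a log2 ratio of 0.55 in the BM and -0.62 in the spleen and both counting intervals away from 0. The spleen ratio minus the BM ratio was -1.17. Gaps of this size were common: the median absolute gap was 1.48 over 186 miRNAs, of which 73 had a smaller one than miR-328-3p. With 1 library per group the difference between tissues was not tested.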

How the results depend on the processing

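Over the 3 other scalings, 20 of 24 recomputed log2 ratios of miR-328-3p and miR-744-5p kept their direction and their side of 2-fold. The exceptions were miR-744-5p in AML spleen against normal spleen, at -0.15 with DESeq2 size factors, miR-328-3p in AML spleen against AML BM, at 0.0388 on total counts and 0.0596 with the 10 most abundant miRNAs left out of the totals, and miR-744-5p in AML spleen against AML BM, called with DESeq2 size factors. TMM factors computed without normal spleen, an alternative chosen after seeing the data, scale the other libraries by 1 common factor, so their ratios could not change. Counts of calls followed the minimum count, since fewer or more miRNAs were compared. With at least 100 counts and with at least 1 they were 24 of 131 and 119 of 643 for AML BM against normal BM. For AML spleen against normal spleen they were 64 of 142 and 179 of 754. They were 96 of 150 and 259 of 755 for normal spleen against normal BM, and 37 of 138 and 141 of 658 for AML spleen against AML BM. The share called was below that of the main setting in each case. Across miRNAs GC content correlated with the log2 ratio of AML BM to normal BM at 0.06, at 0.21 by Spearman's rho and at 0.21 with at least 100 counts, and with that of normal spleen to normal BM at 0.09, 0.22 and 0.24 in the same order. For AML spleen to normal spleen the values were -0.15, -0.18 and -0.06. The cause was not tested. A minimum of 100 counts removes 2 of the 3 miRNAs most similar to miR-744-5p by construction. By Pearson correlation 1 of the 3 miRNAs most similar to miR-328-3p was shared, and 0 of those most similar to miR-744-5p. No paired analysis was possible because each group holds 1 library and the labels give no replicate numbers, so no replicate could be left out either. Depth limits mainly the 5p arm of miR-328, with 0 to 4 reads.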
